A study of Mus musculus with 6 samples.

Results

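The 10 genes described here encode parts of the nutrient sensing machinery formed by AMP-activated protein kinase (AMPK) and the mechanistic target of rapamycin (mTOR). They were chosen by symbol: Prkaa1 and Prkaa2 for the catalytic α subunits of AMPK, Prkab1 and Prkab2 for its β subunits, Prkag1 for a γ subunit, Stk11 for the upstream kinase LKB1, Mtor, Rptor and Rictor for the kinase and the defining subunits of its complexes, and Tsc1 for an inhibitor of the pathway. They are 10 of 48967 mouse genes with a count of their own, and all 10 were among the 16020 genes that passed the filter on low counts and were tested.

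RNA was sequenced from mouse embryos at the 2-cell stage to ask how removal of lipid droplets from the zygote changes the transcriptome. All embryos were wild type F1 (C57Bl/10 X CBA/H), were grown from the zygote in KSOM medium without fatty acids and were collected on day 2. In the delipidated group, lipid droplets had been moved aside by centrifugation in cytochalasin B, with sucrose added for the second spin, and taken out through a laser opening in the zona pellucida with a pipette; the control group kept its lipid droplets, and the labels do not say whether its zygotes were also centrifuged, exposed to cytochalasin B or opened. Each group had 3 libraries, each from a pool of 3 embryos drawn from a common collection, so that p-values measure the spread between pools and not between mothers or treatment days.

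The control libraries held 12164963, 16165958 and 12980787 counts over genes, and the delipidated libraries 20059460, 16332103 and 14683741. Genes with at least 1 count numbered 22855, 22437 and 20582 in controls and 17091, 19408 and 20158 in delipidated embryos, so the deepest library, delipidated replicate 1, detected the fewest genes. The mean correlation of each delipidated library with the 3 control libraries over tested genes (0.855, 0.883 and 0.881 for replicates 1, 2 and 3, on the log2 scale) was higher than its mean correlation with the other delipidated libraries (0.851, 0.867 and 0.857). For controls it was the reverse, with 0.883, 0.877 and 0.858 against delipidated libraries and 0.891, 0.886 and 0.884 against the other controls. Genes are not independent replicates, and these correlations describe the libraries only.

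The label of 2-cell embryos was checked against marker genes. All 13 maternal oocyte genes had counts, with a summed level of 2741, 2009 and 2544 CPM (counts per 1000000 counts of the scaled library) in controls and 2313, 2321 and 3042 CPM in delipidated embryos; Dppa3, a maternal chromatin factor, was the most abundant. All 8 genes activated at the 2-cell stage had counts, with sums of 397, 156 and 347 CPM in controls and 248, 311 and 411 CPM in delipidated embryos, led by Zfp352. Control replicate 2 had the lowest sum of both lists. The 5 markers of later lineages, led by Sox2, summed to 4.72, 5.26 and 5.02 CPM in controls and 8.79, 10.7 and 7.20 CPM in delipidated embryos, so that all delipidated sums were higher than all control sums. Among the 5, the groups did not overlap for Gata3 alone (2.11, 1.69 and 0.760 CPM in controls and 2.96, 3.50 and 4.09 CPM in delipidated embryos; unadjusted p = 0.228 in edgeR). Gata3 had 25, 28 and 10 counts in controls and 60, 57 and 58 in delipidated embryos. Of all tested genes, 3.81% did not overlap with higher values in delipidated embryos.

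Markers of other cells were summed in the same way. The 10 cumulus and granulosa markers summed to 17.0, 27.1 and 80.0 CPM in controls and 11.3, 31.2 and 13.0 CPM in delipidated embryos, with Amhr2 the most abundant on average and Ptx3 and Foxl2 at 0 in every library. In control replicate 3, 49.6 CPM of that sum came from Cyp11a1, a steroidogenic enzyme gene that was at 0.337 CPM or below in the other 5 libraries. The 6 leukocyte markers, led by Cd74, summed to 8.52, 7.14 and 7.30 CPM in controls and 6.67, 3.50 and 3.25 CPM in delipidated embryos, with all delipidated sums below all control sums. Between 0.169 and 9.33 CPM were summed for the 3 oviduct markers (led by Ovgp1) and between 0 and 4.18 CPM for the 5 sperm markers (led by Prm2, with Tnp2 at 0). The part of these cells and of the later lineage genes in the results below was not tested.

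AMPK is a heterotrimer of a catalytic α subunit, a scaffold β subunit and a nucleotide-binding γ subunit, and it is switched on by LKB1 when AMP rises relative to ATP, which favours catabolism over lipid and protein synthesis. mTOR acts in a raptor complex (mTORC1) that promotes growth when amino acids, growth factors and energy suffice, and in a rictor complex (mTORC2) that has substrates of its own; the Tsc1 and Tsc2 proteins restrain mTORC1 through the GTPase Rheb, and AMPK acts on Tsc2 and on raptor. In the mouse, mTOR is needed for growth of the early embryo, and its inhibition holds blastocysts in a state like diapause. At the 2-cell stage an embryo holds both maternal and newly made transcripts, which these counts do not separate.

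Levels were compared between genes as CPM per kilobase of exonic parts, the pieces into which the exons of a gene were divided for counting. A read that spans parts is counted in each, which can raise the level of genes with many short parts, such as Stk11. How far this shaped the order below was not tested. Stk11 was the highest of the 10, at 86.8 ± 5.78 (SD over all 6 libraries), above the levels of 96.7% of the tested genes. Rictor followed at 21.8 ± 4.04, Prkab1 at 15.5 ± 6.60, Prkag1 at 15.3 ± 5.94 and Mtor at 10.9 ± 2.26. Of the counts of Prkag1, 82.9% lay in parts that overlap an antisense gene and may include its reads. Tsc1 (8.40 ± 0.874), Rptor (5.26 ± 1.14) and Prkaa1 (4.54 ± 1.37) lay closer to the median level of tested genes, 3.47. Prkaa2, at 0.776 ± 0.298, and Prkab2, at 0.240 ± 0.184, were below it. Among neighbours in this order, the ranges over the 6 libraries did not overlap between Stk11 and Rictor, between Tsc1 and Rptor, and between Prkaa1 and Prkaa2; for the other 6 pairs of neighbours they did.

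The order depended on which exonic parts were used. With the parts that were at least 50% coding, Stk11 (226) and Rictor (34.2) were again the highest, Tsc1 moved from position 6 to position 3 at 25.4 CPM per kilobase, and Prkaa2 (3.30) and Prkab2 (0.119) again the lowest. With the longest part of each gene alone, Prkab1 was first at 15.4 CPM per kilobase and Stk11 was in position 4 at 4.89. The longest part of Stk11, of 1188 bases, holds no coding sequence.

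**Figure D1:**
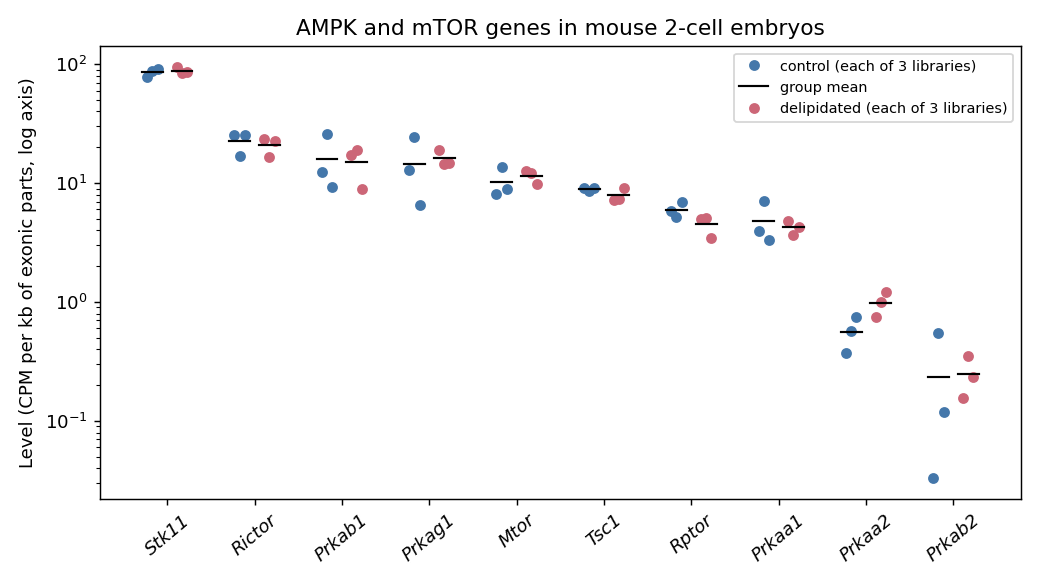
Level of each gene in CPM per kilobase of exonic parts (log axis), with 1 point per library, control in blue and delipidated in red, and a black line at each group mean. Stk11 lies above the other 9 genes in every library, Prkaa2 and Prkab2 lie lowest, and Prkaa2 and Rptor are the genes whose groups do not overlap.

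Between delipidated and control embryos, none of the 10 genes passed the test. With edgeR's quasi-likelihood test, 0 of 10 had a p under 0.05 after Benjamini-Hochberg adjustment together with a log2 fold change beyond 1, the threshold for a call, and 0 of 16020 genes (0%) were called in all. At an unadjusted p under 0.05 there were 0 of the 10 genes and 463 of all tested genes (2.89%), and DESeq2, with no filter on low counts beside its own, called 0 of the 10 and 49 of 19443 genes (0.252%). The adjusted p was 1.00 for each of the 10 in edgeR. Fitted log2 fold changes were positive for 5 and negative for 5, from -0.40 for Rptor to 0.80 for Prkaa2, with a median of -0.016 beside -0.00073 over all tested genes (8004 positive, 8016 negative). The groups did not overlap for 1 gene with higher values in delipidated embryos, Prkaa2 (3.81% of all tested genes), and for 1 with lower values, Rptor (5.05%), together 2 of 10 beside 8.86% of all tested genes.

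**Figure D2:**
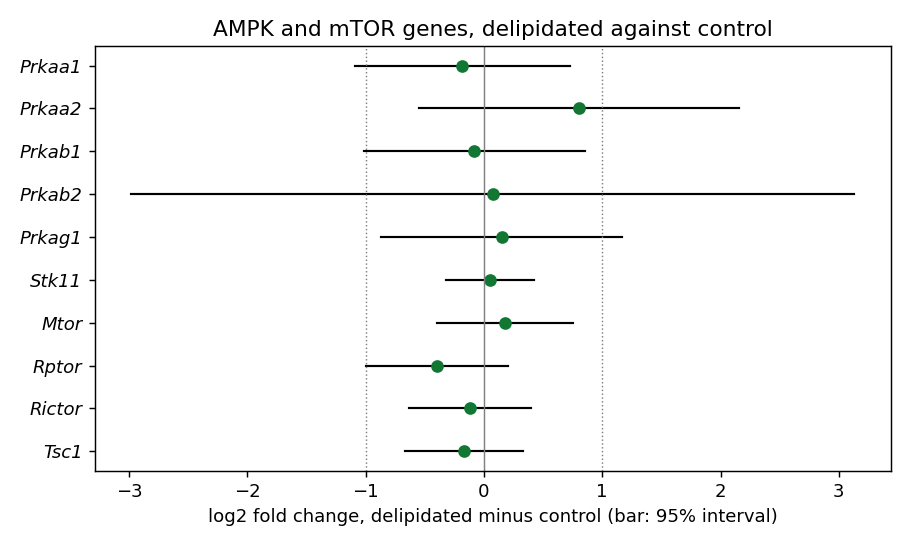
Log2 fold change of each gene, delipidated minus control, from edgeR's quasi-likelihood fit, with 95% intervals as bars and dotted lines at -1 and 1. Every interval includes 0; the narrowest is that of Stk11 (-0.32 to 0.42) and the widest that of Prkab2 (-2.98 to 3.13).

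Prkaa1, which encodes the α1 catalytic subunit (ENSMUSG00000050697, chr15:5143861-5181899, plus strand, build mm10, the same assembly as GRCm38), measured 18.6, 33.2 and 15.6 CPM in control replicates 1 to 3 and 22.5, 17.0 and 19.8 CPM in delipidated replicates 1 to 3. Control replicate 2 was the highest and control replicate 3 the lowest, with all delipidated values between them. The log2 fold change was -0.18 (SE 0.41; unadjusted p = 0.667 in edgeR), and without control replicate 2 it was 0.21. In the part with the most counts alone it was -0.86.

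Prkaa2, for the α2 subunit (ENSMUSG00000028518, chr4:105029874-105109890, minus strand), measured 2.95, 4.54 and 6.005 CPM in controls and 6.02, 7.99 and 9.60 CPM in delipidated embryos. The groups did not overlap, but the highest control and the lowest delipidated library were nearly equal. With genes filtered at a mean count of 50, which changes the scaling, the groups overlapped. They also overlapped in the parts that were at least 50% coding. Delipidated minus control, the log2 fold change was 0.80 (SE 0.62; 95% interval -0.55 to 2.16; unadjusted p = 0.217 in edgeR). These values rest on 35, 75 and 79 counts in controls and 122, 130 and 136 in delipidated embryos, spread unevenly over 9 parts. The coding part at chr4:105049334-105049421 had 0 counts in all controls and 32, 4 and 21 in delipidated embryos, while that at chr4:105036699-105036825 had 8, 1 and 18 counts in controls and 0 in all delipidated libraries. In the part of Prkaa2 with the most counts alone, of 505 bases, the log2 fold change was -0.04.

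Prkab1, for the β1 scaffold subunit (ENSMUSG00000029513, chr5:116013586-116024508, minus strand), measured 38.1, 79.9 and 28.4 CPM in controls and 52.4, 58.4 and 27.5 CPM in delipidated embryos. Control replicate 2 was again the highest, and the groups overlapped. Fitted over all 6 libraries, the log2 fold change was -0.08 (SE 0.43; unadjusted p = 0.849 in edgeR); it was 0.47 without control replicate 2 and 0.18 without delipidated replicate 3.

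Prkab2, for the β2 subunit (ENSMUSG00000038205, chr3:97658193-97673812, plus strand), was close to the limit of detection, with 2, 46 and 8 counts in controls and 16, 29 and 17 in delipidated embryos. Only 11 of its 20 parts had any count, and the 6 parts that were at least 50% coding had counts in control replicate 2 (7) and delipidated replicate 2 (2) alone. The part with the most counts, 27.1% of them, overlaps Gm17651 on the opposite strand. The fitted log2 fold change of 0.07 had an SE of 1.40 (unadjusted p = 0.958 in edgeR); it was 1.67 without control replicate 2, and negative without control replicate 1 (-0.43), control replicate 3 (-0.24) or delipidated replicate 2 (-0.26). Its 95% interval ran from 0.127-fold to 8.76-fold, and no difference was detectable with these counts. With parts that overlap the opposite strand left out, the log2 fold change of Prkab2 was -0.37.

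Prkag1, for the γ1 subunit that binds adenine nucleotides (ENSMUSG00000067713, chr15:98812798-98831508, minus strand), measured 20.9, 39.6 and 10.7 CPM in controls and 31.1, 23.8 and 24.4 CPM in delipidated embryos. Controls spanned the delipidated values on both sides. The log2 fold change was 0.15 (SE 0.47; unadjusted p = 0.750 in edgeR), with 0.74 when control replicate 2 and -0.20 when control replicate 3 was left out. Of its 12 parts, 8 overlap the antisense gene B130046B21Rik and held 82.9% of its counts; over all genes, 12 stretches that carry a part on each strand with the same ends had at least 10 counts, and the counts on the strands had a median ratio of 1.0. By that median the counts did not differ between strands, so counts in the 8 parts may hold reads of either gene. How many came from each gene was not tested. Without those parts the log2 fold change of Prkag1 was -0.11.

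Stk11, for LKB1, the kinase that phosphorylates the activation loop of AMPK (ENSMUSG00000003068, chr10:80115803-80130682, plus strand), measured 356, 402 and 413 CPM in controls and 434, 383 and 396 CPM in delipidated embryos. It was the steadiest of the 10 genes, with a coefficient of variation of 6.66% over the 6 libraries, and the groups overlapped. Delipidated minus control, the log2 fold change was 0.05 (SE 0.17; unadjusted p = 0.771 in edgeR), with a 95% interval from 0.799-fold to 1.34-fold. In the part with the most counts alone it was 0.32, and the groups did not overlap there, with higher values in delipidated embryos. With 1 part per gene, the groups did not overlap in either direction for 8.90% of all tested genes. Many of its 30 parts are shorter than 150 bases, and a read of up to 150 bases can be counted in several parts. A part of 1 base at position 80130470 had 907 counts over the 6 libraries, and its neighbours of 214 and 205 bases had 1987 and 1117. The last 4 parts, these 3 among them, overlap Cbarp on the opposite strand and held 10.9% of the counts of Stk11.

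**Figure D3:**
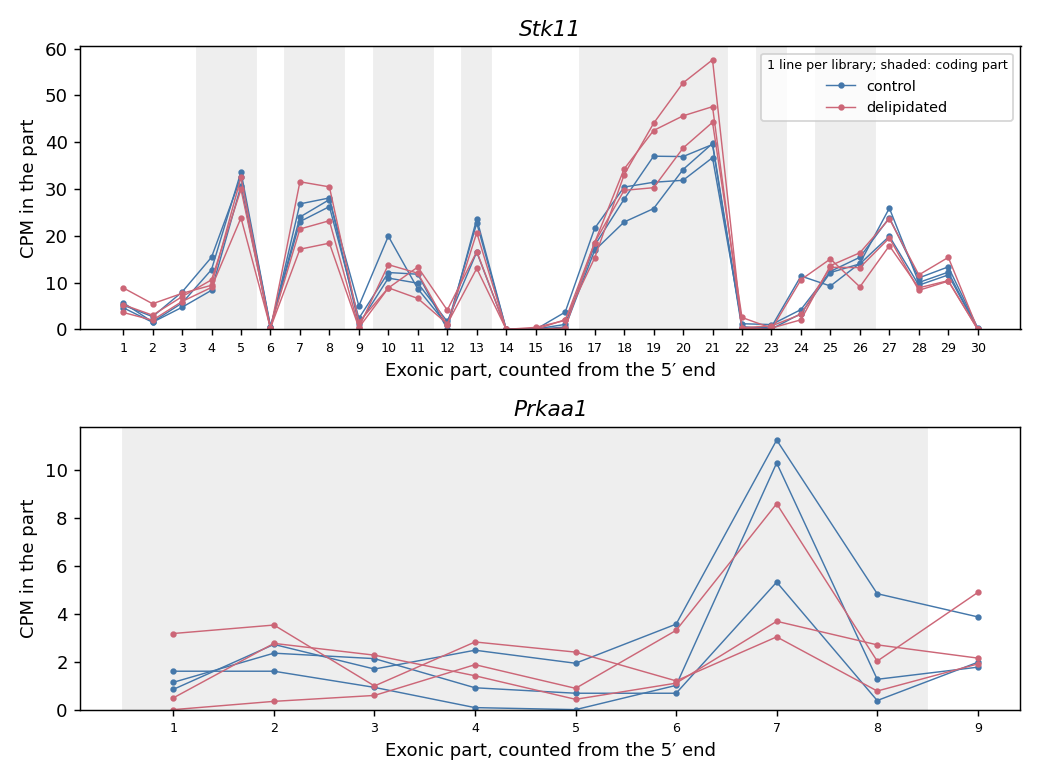
CPM in each exonic part of Stk11 (30 parts) and Prkaa1 (9 parts), numbered from the 5′ end, with 1 line per library, control in blue and delipidated in red, and coding parts shaded. Counts of Stk11 are highest in coding part 21, which held 11.3% of them, and those of Prkaa1 in coding part 7, which held 32.9%.

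Mtor, for the kinase shared by both complexes (ENSMUSG00000028991, chr4:148448611-148557683, plus strand), measured 81.9, 138 and 89.3 CPM in controls and 129, 122 and 98.8 CPM in delipidated embryos. All delipidated libraries lay above control replicates 1 and 3 and below control replicate 2. Fitted over all 6 libraries, the log2 fold change was 0.18 (SE 0.26; 95% interval -0.40 to 0.75; unadjusted p = 0.515 in edgeR); it was 0.04 without control replicate 1 and 0.45 without control replicate 2. The counts came from 64 of 65 parts, none of which is shared with an antisense gene.

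Rptor, for raptor, the subunit that brings substrates to mTORC1 (ENSMUSG00000025583, chr11:119602905-119899576, plus strand), measured 77.9, 70.3 and 93.6 CPM in controls and 67.8, 69.1 and 46.5 CPM in delipidated embryos. All delipidated values were lower than all control values, with control replicate 2 and delipidated replicate 2 next to each other. The log2 fold change was -0.40 (SE 0.27; 95% interval 0.500-fold to 1.15-fold; unadjusted p = 0.173 in edgeR), and without delipidated replicate 3 it was -0.24. In the part with the most counts alone it was -1.07 (unadjusted p = 0.0422 in edgeR). When parts shared with an antisense gene were left out, in Rptor 1 part that overlaps Rptoros, the groups overlapped. Delipidated replicate 1 had counts in 30 of the 59 parts of Rptor, beside 51, 46 and 47 in controls and 46 and 43 in delipidated replicates 2 and 3.

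Rictor, for the subunit that defines mTORC2 (ENSMUSG00000050310, chr15:6708381-6800398, plus strand), measured 237, 159 and 237 CPM in controls and 220, 153 and 209 CPM in delipidated embryos. Replicate 2 was the lowest of each group, and the groups overlapped. Delipidated minus control, the log2 fold change was -0.12 (SE 0.24; unadjusted p = 0.631 in edgeR). Its counts covered all 38 parts, with 37 or 38 covered in each library.

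Tsc1, for hamartin, which stabilises Tsc2 in the complex that restrains mTORC1 (ENSMUSG00000026812, chr2:28641228-28691167, plus strand), measured 107, 102 and 107 CPM in controls and 85.2, 87.5 and 108 CPM in delipidated embryos. Delipidated replicates 1 and 2 were below all controls, and delipidated replicate 3 was above them. Fitted over all 6 libraries, the log2 fold change was -0.17 (SE 0.23; unadjusted p = 0.472 in edgeR), and in the single part with the most counts it was 0.13. Without delipidated replicate 3 it was -0.29, and the groups then did not overlap, as for 21.1% of all tested genes in that fit.

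Control replicate 2 had the highest value of all libraries for 5 of the 10 genes, Prkaa1, Prkab1, Prkab2, Prkag1 and Mtor, and the lowest summed 2-cell markers given above. Control replicate 1 had the lowest value for 4, Prkaa2, Prkab2, Stk11 and Mtor. Over all tested genes, the mean correlation of control replicate 2 with the other controls (0.886) lay between theirs (0.891 and 0.884). As control replicate 2 was picked for its high values, higher values in delipidated embryos without it follow in part from that choice. Without it the groups did not overlap for 4 genes with higher values in delipidated embryos (Prkaa2, Prkab2, Prkag1 and Mtor; 7.9% of all tested genes in that fit) and for 2 with lower values (Rptor and Rictor; 10.3%). With 2 libraries left in the control group, 0 of the 10 genes were called in edgeR. The part of the 2-cell markers in these values was not tested.

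Within a library, the ratio of paralogous or alternative subunits does not depend on scaling. The log2 ratio of Prkaa1 to Prkaa2 counts was 2.65, 2.87 and 1.38 in controls and 1.90, 1.09 and 1.05 in delipidated embryos. Delipidated replicates 2 and 3 had the lowest ratios, but delipidated replicate 1 was above control replicate 3. The mean difference was -0.95 (exact two-sided permutation p = 0.2, adjusted p = 0.6 over 3 ratios by Benjamini-Hochberg; the smallest p for 3 against 3 is 0.1), and with 1 library left out it ranged from -1.42 to -0.67. Per kilobase, α1 made up 88.6% ± 6.05 of both α subunits in controls and 81.0% ± 4.78 in delipidated embryos (SD, n = 3 each).

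The log2 ratio of Prkab1 to Prkab2 was 7.82, 4.84 and 5.55 in controls and 6.05, 5.03 and 4.52 in delipidated embryos, and that of Rptor to Rictor was -1.60, -1.17 and -1.34 in controls and -1.70, -1.15 and -2.17 in delipidated embryos. Groups overlapped for both. The mean differences were -0.87 (exact permutation p = 0.6, adjusted p = 0.6) and -0.30 (exact permutation p = 0.5, adjusted p = 0.6); the former was 0.0055 without control replicate 1, where Prkab2 had 2 counts, and -1.48 without control replicate 2, and the latter was -0.05 without delipidated replicate 3 and -0.99 with the part with the most counts of each gene. Prkab1 held 98.8% ± 0.895 and 98.2% ± 0.833 of the counts of both β genes per kilobase in control and delipidated embryos.

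Since uniquely placed reads alone were counted, the ratios of paralogs need reads that tell them apart. In the coding sequences (GENCODE M21), the longest identical stretch was 35 bases for the α pair and 23 bases for the β pair, and the most alike stretches of 150 bases, the read length, still differed at 23 and 26 bases. The windows of 60 bases around the longest identical stretches are shown for the α pair, with 4 differing bases in capitals (chr15:5143902-5143961, plus strand, and chr4:105109739-105109798, minus strand; GRCm38), and for the β pair, with 9 differing bases in capitals (chr5:116020389-116020448, minus strand, and chr3:97663601-97663660, plus strand; GRCm38). All 4 windows lie in coding exons.
Prkaa1: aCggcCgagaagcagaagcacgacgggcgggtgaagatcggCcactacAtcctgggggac
Prkaa2: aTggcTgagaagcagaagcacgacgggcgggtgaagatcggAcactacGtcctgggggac
Prkab1: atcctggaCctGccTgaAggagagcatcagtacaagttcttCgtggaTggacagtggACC
Prkab2: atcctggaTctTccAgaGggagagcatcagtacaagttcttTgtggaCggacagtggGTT

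The other genes of the pathway were read from the same fit. Of 92 genes in 10 lists, 86 were tested and 0 were called in edgeR; 2 had an unadjusted p under 0.05 with higher values in delipidated embryos (Eif4ebp1 and Crtc2; 1.15% of all tested genes) and 1 with lower values (Tbc1d7; 1.74%). Their groups did not overlap for 4 genes with higher values (Eif4ebp1, Crtc2, Rraga and Tsc2; 3.81% of all tested genes) and 2 with lower values (Tbc1d7 and Lpin1; 5.05%). The median log2 fold change of the tested genes was 0.03. It was the same with Tbc1d7, the tested gene without counts in delipidated embryos, set at the bound that 3 counts per library allow. The 6 genes that were not tested were Prkag3, Lamtor4, Eif4ebp3, Tfeb, Tbc1d4 and Ppargc1a. No list had a called gene.

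Among substrates and effectors of mTORC1 (12 of 14 tested, 6 positive and 6 negative), Eif4ebp1, which encodes a translation repressor that mTORC1 phosphorylates, measured 5.15, 3.02 and 3.04 CPM in controls and 10.3, 9.58 and 10.8 CPM in delipidated embryos. All delipidated values were higher than all control values. The log2 fold change was 1.45 (SE 0.58; unadjusted p = 0.0283, adjusted p = 1.00 by Benjamini-Hochberg in edgeR). Eif4e, the cap-binding factor that this repressor blocks, had the highest level per kilobase of the list, with a mean of 621 ± 7.77 CPM in controls and 587 ± 75.4 CPM in delipidated embryos (SD, n = 3 each) and a log2 fold change of -0.08 (SE 0.17).

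Among substrates and downstream genes of AMPK (11 of 13 tested, 5 positive and 6 negative), Crtc2, a CREB coactivator that AMPK-related kinases keep in the cytoplasm, measured 12.4, 8.83 and 7.60 CPM in controls and 35.1, 15.2 and 16.7 CPM in delipidated embryos. The groups did not overlap, and delipidated replicate 1 was far above the other libraries. Delipidated minus control, the log2 fold change was 1.22 (SE 0.48; unadjusted p = 0.0273, adjusted p = 1.00 by Benjamini-Hochberg in edgeR). Ulk1, the autophagy kinase that AMPK and mTORC1 both phosphorylate, had the highest level per kilobase of the list and a log2 fold change of -0.11 (SE 0.21).

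In the TSC and Rheb list (4 of 4 tested), Tbc1d7, the third subunit of the TSC complex, had 9, 15 and 23 counts in controls and 0 in each delipidated library (unadjusted p = 0.0117, adjusted p = 1.00 by Benjamini-Hochberg in edgeR). Its level was low, at 1.14 ± 0.533 CPM in controls. It passed the filter on low counts through the controls alone, so its p and the gap between its groups are no support for a difference. Each delipidated library also had fewer genes with a count than each control, as given above. Rhebl1, a paralog of Rheb, had the highest level per kilobase of the list and a log2 fold change of -0.84 (SE 0.52; unadjusted p = 0.130 in edgeR).

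Among Rag GTPases, Ragulator and folliculin genes (12 of 13 tested, 8 positive and 4 negative), Rraga, for a GTPase that brings mTORC1 to the lysosome, measured 10.6, 4.54 and 9.35 CPM in controls and 14.5, 11.1 and 22.8 CPM in delipidated embryos. The groups did not overlap by a narrow margin. Fitted over all 6 libraries, the log2 fold change was 0.98 (SE 0.52; unadjusted p = 0.0868 in edgeR). Rragc, for its partner GTPase, had the highest level per kilobase of that list and a log2 fold change of 0.05 (SE 0.21).

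The remaining lists held no gene with an unadjusted p under 0.05. Among kinases upstream of AMPK and partners of LKB1 (7 of 7 tested, 2 positive and 5 negative), Camkk2, a calcium-dependent kinase of AMPK, had the smallest p, with a mean of 14.9 ± 4.18 CPM in controls and 7.67 ± 3.62 CPM in delipidated embryos (log2 fold change -0.96, SE 0.54; unadjusted p = 0.1004 in edgeR). Cab39, a scaffold of LKB1, had the highest level per kilobase and a log2 fold change of 0.13 (SE 0.20). Prkag2, the other γ subunit gene tested, had a log2 fold change of -0.37 (SE 1.09). Among other mTOR complex subunits (8 of 8 tested, 6 positive and 2 negative), Deptor, an inhibitor of mTOR, had 0.25 (SE 0.24) and Mapkap1, a subunit of mTORC2, 0.20 (SE 0.19) as log2 fold changes.

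Among GATOR and KICSTOR subunits, which set the response of mTORC1 to amino acids (11 of 11 tested, 8 positive and 3 negative), the log2 fold change was 0.51 (SE 0.58) for Itfg2 and 0.03 (SE 0.25) for Seh1l. Sesn2, a leucine sensor, had both the smallest p and the highest level per kilobase among sensors and stress inhibitors (7 of 7 tested, 4 positive and 3 negative), with a log2 fold change of -0.21 (SE 0.21). In the list of insulin and growth factor input (13 of 13 tested, 5 positive and 8 negative), Sgk1, a kinase activated by mTORC2, had a log2 fold change of -1.02 (SE 0.64), with control replicate 3 at 32.6 CPM and the other 5 libraries between 5.44 and 11.9 CPM.

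The genes whose pattern over the 6 libraries was most like that of Prkaa1, by the root mean square difference in centred log2 CPM among 8126 genes with a mean of at least 10 CPM, were Nop9 (0.118), Arpc3 (0.123) and Emg1 (0.126), beside a median of 0.505. For Mtor they were Ruvbl1 (0.0518), Pcnt (0.0620) and Adam17 (0.0651), beside a median of 0.457.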

How the data were processed

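The authors deposited raw counts per exonic part. Per the labels and the study's methods, stranded total RNA libraries after ribosomal RNA depletion were read as pairs of 150 bases, trimmed (Trimmomatic 0.36), aligned (STAR 2.5.2b) and counted with featureCounts from unique reads in exons; the strand setting is not stated. Parts were summed per gene. Of 33309 parts with joined identifiers, 27968 were given to the single gene whose GENCODE M21 exons they overlap and the rest left out (2.49% to 2.57% of counts). Reads that span parts are counted more than once, so counts overstate precision.

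The comparison of groups used edgeR 4.0.16 (R 4.3.3): filterByExpr (minimum count 10, minimum total 15), TMM scaling and the quasi-likelihood test without covariates, with Benjamini-Hochberg adjustment over 16020 genes; intervals are 95%. Genes were called at adjusted p under 0.05 and log2 fold change beyond 1. The fit was tested on simulated data. CPM use TMM-scaled library sizes. Ratios were compared by exact permutation.

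Alternatives were DESeq2 1.42.0, its size factors, other filters, a replicate block, other library sizes, other sets of parts and leaving out each library; coding parts alone were added after the data were seen. All 10 genes were named, then per pathway list the tested gene with the smallest p and that with the highest level per kilobase, per marker list the most abundant gene, and for Prkaa1 and Mtor the 3 genes most alike. The gene with the highest level in 1 list is not reported here. Other genes, such as Cyp11a1, Tsc2 and Lpin1, were named after their values were seen. Members and lists were chosen with earlier results of these data known.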

Additional observations from a re-analysis of the deposited data

How the results depend on the processing

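No member that was tested was called in edgeR or DESeq2 under any of 16 alternatives (9 of 10 were tested with a mean count of at least 50 and with 1 part per gene, without Prkab2), and no other pathway gene was called under 15. The number of called genes rose from 0 to 49 with DESeq2 and no filter on low counts beside its own (9 higher, 40 lower) and to 30 with edgeR and no filter on low counts (5 higher, 25 lower), with more genes tested. The smallest Benjamini-Hochberg adjusted p of any of the 10 genes was 0.718, for Rptor in edgeR with no filter (range over its alternatives 0.718 to 1.00).

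Members with an unadjusted p under 0.05 in edgeR went from 0 to 1 when the part with the most counts stood for each gene; that gene was Rptor (log2 fold change -1.07, unadjusted p = 0.0422), and 330 of 13364 tested genes had such a p. The number of members whose groups do not overlap was 1 with a mean count of at least 50 (Rptor) and 1 without parts that overlap the opposite strand (Prkaa2), and between 2 and 6 when 1 library was left out (6 without control replicate 2). With 1 part per gene they were Rptor and, with higher values in delipidated embryos, Stk11 in place of Prkaa2. In the parts that were at least 50% coding, the groups overlapped for both Prkaa2 and Rptor. Of all tested genes, the groups did not overlap for 8.86% with all libraries, 8.44% with a mean count of at least 50, 8.90% with 1 part per gene, 8.80% when parts overlapping the opposite strand were left out and 15.8% to 21.1% with 1 library left out (18.2% without control replicate 2). For members, the median log2 fold change ranged from -0.18 to 0.33 with 1 library left out.

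Some single log2 fold changes changed sign. With 1 library left out, the values ranged from -0.39 to 0.21 for Prkaa1, 0.59 to 1.07 for Prkaa2, -0.36 to 0.47 for Prkab1, -0.43 to 1.67 for Prkab2, -0.20 to 0.74 for Prkag1, -0.0023 to 0.091 for Stk11, 0.044 to 0.45 for Mtor, -0.50 to -0.24 for Rptor, -0.28 to 0.027 for Rictor and -0.29 to -0.11 for Tsc1. Between groups, the log2 ratio of Prkab1 to Prkab2 then differed by -1.48 to 0.0055, that of Prkaa1 to Prkaa2 by -1.42 to -0.67 and that of Rptor to Rictor by -0.56 to -0.053; with 1 part per gene, the last 2 were -0.90 and -0.99. With 1 part per gene, the log2 fold changes were -0.86 for Prkaa1, -0.041 for Prkaa2, 0.18 for Prkab1, 0.32 for Stk11 and 0.13 for Tsc1. Without parts that overlap the opposite strand they were -0.37 for Prkab2 and -0.11 for Prkag1. Mtor stayed positive and Rptor negative under all 15 alternatives.

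Levels in CPM per kilobase moved by more than their SD over libraries for most genes. With the longest part alone they were 0.859 for Prkaa1, 0.185 for Prkaa2, 7.90 for Prkag1, 4.89 for Stk11, 2.45 for Mtor, 1.49 for Rptor, 6.86 for Rictor and 2.18 for Tsc1. With parts at least 50% coding, chosen after the data were seen, they were 12.7 for Prkaa1, 3.30 for Prkaa2, 22.7 for Prkab1, 21.6 for Prkag1, 226 for Stk11, 13.7 for Mtor, 15.04 for Rptor, 34.2 for Rictor and 25.4 for Tsc1. The causes of these shifts were not tested.

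No pairing of the samples by replicate number was seen. Libraries with the same number correlated in their deviations from the group means at -0.084, 0.070 and 0.043, and control replicate 1 correlated best with delipidated replicate 3 (0.15). With 3 libraries a group, these values cannot exclude a pairing. With the replicate number as a block, 0 genes and 0 members were called, 2 members did not overlap between groups, and their median log2 fold change was 0.02. Pools of 3 embryos and 3 libraries a group limit what could be detected.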
